A study of Mus musculus with 18 samples.

Results

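The subject here is the BCL2 family, the genes that set whether a cell keeps or opens its mitochondrial outer membrane. The members were the 10 entries of the deposited expression table whose symbol was Bcl2, Bcl2l1, Mcl1, Bcl2a1b, Bcl2l11, Bbc3, Bad, Bcl2l14, Bax or Bak1, out of 36528 entries. All 10 passed the filter for testing, which asked for 3 or more of the 18 libraries to reach an nRPKM of 1, as did 13075 entries in all. Bcl2l14 passed only through libraries with high beads, so its differences between bead doses and between antibodies were in part set by the filter.

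The libraries came from splenic CD4 T cells of female NZB/W F1 mice, a lupus-prone cross of NZB and NZW, aged 21 to 27 weeks with 30 to 100 mg/dL of urinary protein. Every well held 250000 cells and IL-2 at 10 U/mL, so the controls had this survival cytokine too. Wells also received 25 µg/mL of either an anti-Ox40 IgG1 or an isotype-matched IgG1, called control Ig. Beads that carry anti-CD3 and anti-CD28, which stand in for antigen and CD28 costimulation, were left out (no beads) or given at 0.1 per cell (low beads) or 1 per cell (high beads). RNA was taken at 48 hours. This gave 6 groups of 3 libraries, with 1 antibody and 1 bead dose each. The labels do not say whether the 3 libraries of a group came from separate mice or cultures, so p-values measure the spread between these libraries, which may be technical. The series title states the aim as finding what Ox40 and the T cell receptor do together, and the comparisons below ask where the BCL2 family stood in each combination.

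Pro-survival members of the family (Bcl2, Bcl-xL from Bcl2l1, Mcl1 and A1 from the Bcl2a1 genes) hold the killers of the family in check by gripping their short BH3 helix in a surface groove. BH3-only proteins such as Bim (from Bcl2l11), Puma (from Bbc3) and Bad occupy that groove, and the effectors Bax and Bak, once free, form the pores that release cytochrome c. In T cells, resting survival rests largely on Bcl2 and Mcl1, activation through the receptor and CD28 induces Bcl-xL, and Bim drives much of the death of activated cells after cytokine withdrawal. Ox40 (from Tnfrsf4) is a costimulatory receptor of the TNF receptor family that activated T cells display, and its signals have been linked to Bcl2, Bcl-xL and A1.

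The members are related through the BH3 core, so its coding sequence is shown first, to place a little-studied member (Bcl2l14) beside the well-known ones. The pattern searched was a leucine, any 3 residues, a glycine, alanine or serine, and an aspartate, in the longest coding transcript of each gene in GENCODE on GRCm38. It occurred exactly 1 time in 9 members, each within 1 exon, and was not found in Bcl2a1b. The reference is C57BL/6J, not NZB or NZW. In the 30 coding bases below, written 5′ to 3′, capitals mark the codons of the leucine, the small residue and the aspartate.
Bcl2 (chr1:106712578-106712607, minus strand): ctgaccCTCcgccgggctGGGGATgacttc
Bcl2l1 (chr2:152829700-152829729, minus strand): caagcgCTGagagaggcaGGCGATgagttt
Mcl1 (chr3:95659430-95659459, plus strand): gagaccCTGcggcgcgtgGGCGACggcgtg
Bax (chr7:45466000-45466029, minus strand): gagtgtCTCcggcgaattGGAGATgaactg
Bak1 (chr17:27022534-27022563, minus strand): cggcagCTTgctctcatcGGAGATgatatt
Bcl2l11 (chr2:128147144-128147173, plus strand): caggagCTGcggcggatcGGAGACgagttc
Bbc3 (chr7:16313767-16313796, plus strand): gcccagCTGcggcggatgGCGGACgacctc
Bad (chr19:6950786-6950815, plus strand): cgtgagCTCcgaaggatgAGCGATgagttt
Bcl2l14 (chr6:134430098-134430127, plus strand): gagctgCTGaaattctcgGGGGATcagttg
Puma has an alanine codon and Bad a serine codon where the other 7 have glycine codons. The leucine and aspartate codons were required by the search and are no finding. How often so short a pattern occurs in unrelated proteins was not counted.

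Values are nRPKM (reads scaled to gene length and library size, with a further normalisation between libraries by the authors), a scale that allows levels of different genes to be set side by side. Such comparisons between genes depend on the gene lengths the authors used, which are not known. An nRPKM of 1 over 1 kb stood for 26.4 to 46.0 reads, depending on the library. CD4 T cell identity genes (8 listed genes measured, among them Cd4 and Cd3e) summed to 1464 to 1868 nRPKM, and Cd8a was at most 0.433. Markers of other cells were present, and their sums differed by bead dose. In the control Ig groups without, with low and with high beads, 9 myeloid markers summed to 257 to 292, 20.8 to 26.8 and 5.60 to 12.3 nRPKM. Without beads, Csf1r, which defines macrophages, was at 6.21, 6.91 and 6.73 with control Ig, and with high beads it was at 0.020 to 0.055. The 10 B cell markers were highest in replicate 3 of every group, at 7.37 to 55.3 against 4.44 to 10.7 in replicates 1 and 2. In these bulk libraries, fewer cells of a type and less RNA per cell cannot be told apart. The nuclear RNA Malat1 had a mean of 329 nRPKM without beads and 86.1 with high beads under control Ig.

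Among the pro-survival genes, beads raised Bcl2 and Bcl2l1 at both doses, Mcl1 was higher than without beads at the low dose and not called at the high dose, and Bcl2a1b rose with high beads under control Ig, to 1.61 times its mean without beads. Mcl1 had the highest nRPKM of the members except in anti-Ox40 replicate 1 with high beads, where Bax was above it (177 against 149 nRPKM). Bcl2l1 had the largest rise of this class, to 5.32 times its unstimulated mean under control Ig with high beads and 6.63 times under anti-Ox40. Differences below are in log2(nRPKM + 1), which understates the change of low genes, with standard errors from a limma model of all 6 groups and p-values adjusted by the Benjamini-Hochberg method over the 13075 tested genes. A gene was called when the adjusted p was under 0.05.

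Bcl2 (chr1:106538176-106714290 on GRCm38) under control Ig stood at 27.2, 27.1 and 28.2 nRPKM without beads, 54.4, 65.9 and 54.9 with low beads and 64.02, 76.96 and 75.9 with high beads. Under anti-Ox40 it stood at 27.2, 25.8 and 26.5 without beads, 55.5, 68.9 and 58.1 with low beads and 60.8, 68.6 and 72.6 with high beads. The unstimulated libraries lay far below the 12 with beads, and the low-bead and high-bead groups overlapped under each antibody. The differences from no beads under control Ig were 1.05 ± 0.092 (SE, adjusted p = 7.78e-08) with low and 1.36 ± 0.092 (SE, adjusted p = 7.89e-10) with high beads. High beads added 0.30 to the low-bead level (adjusted p = 0.00739). That call was lost, at 0.0896 (adjusted p = 0.724), with a nuclear RNA score of each library as covariate (the mean log2 level of 5 listed nuclear RNAs, Malat1 among them). It was also lost, at 0.23 (adjusted p = 0.148), without the library of each group with the most B cell markers. The nuclear RNA score was 2.359 to 2.658 in the high-bead libraries and 2.895 to 3.483 in all others. A bead difference lost with this score, here or below, therefore cannot be assigned to nuclear RNA rather than dose. The step from low to high beads under anti-Ox40 was 0.15 and was not called (adjusted p = 0.162), but was called without low-bead replicate 2 (adjusted p = 0.0307). Exons of D630008O14Rik, on the opposite strand, overlap those of Bcl2 over 558 of 9157 bases.

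Bcl2l1 (chr2:152758732-152833803), which encodes Bcl-xL, stood at 4.31, 3.96 and 4.04 nRPKM without beads, 9.87, 13.8 and 11.1 with low beads and 23.9, 20.4 and 21.2 with high beads under control Ig. Its values under anti-Ox40 were 4.34, 4.34 and 4.37 without beads, 12.4, 15.01 and 13.8 with low beads and 31.2, 29.5 and 25.9 with high beads. Each bead dose was separated from the next under both antibodies, and the low-bead groups of both antibodies overlapped. Under control Ig the gain was 1.29 ± 0.098 (SE, adjusted p = 1.57e-08) with low and 2.16 ± 0.098 (SE, adjusted p = 6.04e-12) with high beads. Under anti-Ox40 it was 1.46 (adjusted p = 2.67e-09) and 2.48 (adjusted p = 8.96e-13).

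Mcl1 (chr3:95656944-95663179), whose short-lived protein protects cells at many stages, was at 159.7, 159.9 and 160.0 nRPKM without beads, 185, 219 and 178 with low beads and 158, 176 and 170.3 with high beads under control Ig. The anti-Ox40 groups held 152, 151 and 159.8 without beads, 188, 200.4 and 168 with low beads and 149, 169.9 and 159.7 with high beads. Mcl1 was highest at the low dose under both antibodies, with the spread of the low-bead libraries wider than that of any other group. Low beads raised it by 0.27 ± 0.076 (SE, adjusted p = 0.00566) under control Ig and by 0.26 under anti-Ox40 (adjusted p = 0.00568). With the nuclear RNA score the latter was 0.13 and was not called (adjusted p = 0.227). From low to high beads it fell, with a difference of -0.20 under control Ig (adjusted p = 0.0279) and -0.22 under anti-Ox40 (adjusted p = 0.0182). Either call was lost without low-bead replicate 2 (adjusted p = 0.163 and 0.095) or high-bead replicate 1 (0.113 and 0.0871) of that antibody, and the control Ig call also with no filter or with the compared groups alone (0.0578 and 0.0876). High beads did not differ from none by the test under either antibody (0.07 and 0.05).

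Bcl2a1b (chr9:89199273-89207838), a copy of the A1 gene, was low, at 0.811 to 2.30 nRPKM over the 18 libraries, or about 24 to 64 reads each. With control Ig it stood at 1.44, 1.11 and 1.48 without, 1.48, 0.811 and 0.846 with low and 2.26, 1.93 and 2.30 with high beads. With anti-Ox40 it stood at 1.31, 1.59 and 1.68 without beads, 1.88, 1.26 and 1.66 with low beads and 1.17, 1.05 and 1.74 with high beads. The control Ig libraries with high beads were the highest 3 of the 18, and no other group was separated from all the rest. High beads raised it under control Ig by 0.43 ± 0.14 (SE, adjusted p = 0.0075) over no beads and by 0.64 ± 0.14 (SE, adjusted p = 0.000507) over low beads, 2.07 times the low-bead mean. The former was not called with the nuclear RNA score (0.62, adjusted p = 0.0859). Low against no beads gave -0.21 (adjusted p = 0.193), a difference that was called, at -0.35, without low-bead replicate 1 (adjusted p = 0.0288). From low to high beads under anti-Ox40 the difference was -0.17 (adjusted p = 0.274), and from no to high beads it was -0.13 (adjusted p = 0.362). These values carry a further uncertainty, because A1 exists in near-identical copies. The first 60 coding bases of 3 copies on chromosome 9, from GENCODE on GRCm38, are shown to make that visible, and capitals mark the 6 positions where they differ.
Bcl2a1a: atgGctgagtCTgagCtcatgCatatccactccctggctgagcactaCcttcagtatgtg
Bcl2a1b: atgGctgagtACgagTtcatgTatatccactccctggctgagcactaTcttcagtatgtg
Bcl2a1d: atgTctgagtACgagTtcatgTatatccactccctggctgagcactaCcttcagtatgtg
Over 516 coding bases, Bcl2a1b was 97.9% identical to Bcl2a1a and 98.8% to Bcl2a1d, and 57.6% of the 50-base windows of its transcript occurred in another copy. How the authors assigned reads that fit several copies is not given in the sources used here. Bcl2a1a was listed at 0.321 to 0.999 nRPKM and Bcl2a1d at 0 to 0.358, and neither passed the filter. Exons of another annotated gene, Gm29094, also overlap those of Bcl2a1b on the same strand, over 401 of its 817 exonic bases. How reads there were assigned is not given either.

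**Figure D1:**
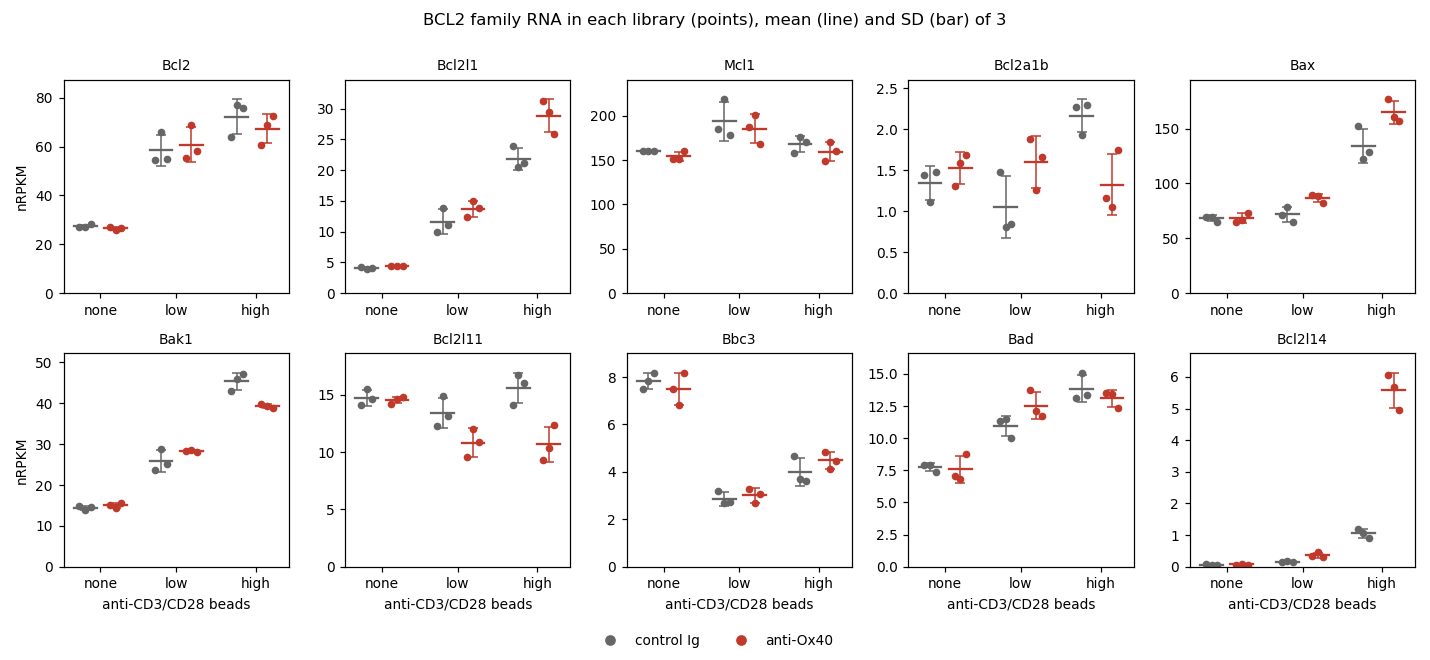
Level of each of the 10 BCL2 family members in each of the 18 libraries (points, vertical axis in nRPKM) by bead dose and antibody, with horizontal lines for the group mean and vertical bars for 1 SD (n = 3). Bcl2, Bcl2l1, Bak1 and Bad stand higher with beads than without, Bbc3 stands lower, and Bcl2l14 is near 0 except with high beads, where anti-Ox40 libraries (4.96 to 6.07) lie above control Ig libraries (0.916 to 1.18).

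The effectors rose with beads, Bak1 from the low dose on and Bax mainly at the high dose. Bak1 (chr17:27019812-27028627), whose protein resides on mitochondria, was at 14.9, 13.9 and 14.6 nRPKM without beads, 23.7, 28.8 and 25.3 with low beads and 43.1, 46.03 and 47.2 with high beads under control Ig. Its anti-Ox40 values were 15.2, 14.3 and 15.5 without beads, 28.4, 28.6 and 28.2 with low beads and 39.8, 39.4 and 38.9 with high beads. All 3 doses were separated from each other under each antibody. The gain over no beads was 0.80 ± 0.056 (SE, adjusted p = 6.72e-09) with low and 1.59 ± 0.056 (SE, adjusted p = 2.99e-13) with high beads under control Ig, and 0.88 and 1.33 under anti-Ox40. The step from low to high beads under anti-Ox40 was 0.46 (adjusted p = 2.57e-06) and was not called with the nuclear RNA score (0.16, adjusted p = 0.099). The exons of Bak1 overlap those of Ggnbp1 on the opposite strand over 614 bases, and Ggnbp1 means were 0.79 to 1.08 nRPKM.

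Bax (chr7:45461695-45466903), whose protein is largely cytosolic until activated, was at 69.5, 69.8 and 64.9 nRPKM without beads, 71.3, 78.8 and 64.98 with low beads and 152, 123 and 129 with high beads under control Ig. With anti-Ox40 it was at 65.2, 66.3 and 73.3 without beads, 89.2, 88.9 and 82.6 with low beads and 177, 160.1 and 157 with high beads. Under control Ig the low-bead libraries overlapped those without beads, and the high-bead libraries lay above both. Low beads gave 0.07 under control Ig, which was not called (adjusted p = 0.467), and 0.34 ± 0.081 (SE, adjusted p = 0.00129) under anti-Ox40. The latter was 0.18 with the nuclear RNA score and was not called (adjusted p = 0.102). High beads gave 0.97 ± 0.081 (SE, adjusted p = 1.2e-08) and 1.26 ± 0.081 (SE, adjusted p = 3.55e-10). Exons of Gm45808, on the same strand, overlap those of Bax over 192 of 1576 bases.

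The BH3-only genes went different ways. Bbc3 (chr7:16308398-16318334), which encodes Puma, a p53 target that binds all pro-survival members, fell with beads. Under control Ig it was at 7.48, 7.83 and 8.18 nRPKM without beads, 3.21, 2.68 and 2.71 with low beads and 4.68, 3.69 and 3.61 with high beads. The anti-Ox40 groups held 7.50, 6.84 and 8.19 without beads, 3.30, 2.68 and 3.07 with low beads and 4.85, 4.14 and 4.47 with high beads. Every library without beads lay above every library with them, and the low dose was the lowest under each antibody. The differences from no beads were -1.19 ± 0.090 (SE, adjusted p = 1.41e-08) with low and -0.83 ± 0.090 (SE, adjusted p = 2.77e-07) with high beads under control Ig. From low to high beads Bbc3 rose by 0.36 under control Ig (adjusted p = 0.00183) and by 0.45 under anti-Ox40 (adjusted p = 0.000312). Neither was called with the nuclear RNA score (0.35, adjusted p = 0.151, and 0.44, adjusted p = 0.0805).

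Bad (chr19:6941861-6951905), whose binding to Bcl2 and Bcl-xL is switched off by phosphorylation, moved the other way. It was at 7.92, 7.94 and 7.41 nRPKM without beads, 11.3, 11.5 and 10.1 with low beads and 13.1, 15.1 and 13.4 with high beads under control Ig. Under anti-Ox40 Bad was at 7.08, 6.85 and 8.78 without beads, 13.8, 12.1 and 11.7 with low beads and 13.5, 13.5 and 12.3 with high beads. Libraries with beads lay above those without, and the bead doses overlapped under anti-Ox40. Low beads raised it by 0.45 ± 0.083 (SE, adjusted p = 0.000216) and high beads by 0.76 ± 0.083 (SE, adjusted p = 2.98e-07) under control Ig. High exceeded low beads there by 0.31 (adjusted p = 0.00304), which was 0.13 and not called with the nuclear RNA score (adjusted p = 0.557). The exons of Bad overlap those of Gpr137 on the opposite strand over 524 bases, and the library kit does not mark strand, so reads there cannot be told apart. Gpr137 means ran from 4.56 to 6.10 nRPKM over the groups.

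Bcl2l11 (chr2:128126038-128162547), which encodes Bim, showed no called bead difference under control Ig and fell with beads under anti-Ox40. Its control Ig values were 14.1, 15.5 and 14.7 nRPKM without beads, 12.3, 14.9 and 13.1 with low beads and 14.1, 16.7 and 16.02 with high beads. Its anti-Ox40 values were 14.2, 14.6 and 14.8 without beads, 9.55, 12.1 and 10.9 with low beads and 9.32, 10.3 and 12.4 with high beads. All 6 anti-Ox40 libraries with beads lay below the 6 libraries without them. The bead differences under anti-Ox40 were -0.40 ± 0.095 (SE, adjusted p = 0.00141) for low and -0.42 ± 0.095 (SE, adjusted p = 0.000616) for high beads. Under control Ig they were -0.13 (adjusted p = 0.253) and 0.07 (adjusted p = 0.469). High against low beads under control Ig was 0.20 (adjusted p = 0.0651), and was called without low-bead replicate 2 (0.27, adjusted p = 0.0237) or high-bead replicate 1 (0.27, adjusted p = 0.030).

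Bcl2l14 (chr6:134396329-134438724) encodes Bcl-G, a relative whose place in cell death is less settled than that of the other members. It was at 0.0890, 0.0690 and 0.0540 nRPKM without beads, 0.137, 0.189 and 0.139 with low beads and 1.18, 1.06 and 0.916 with high beads under control Ig. With anti-Ox40 the values were 0.0680, 0.0880 and 0.0600 without beads, 0.354, 0.453 and 0.300 with low beads and 6.07, 5.68 and 4.96 with high beads. Its levels climbed with bead dose under both antibodies without overlap between doses. By gene length, these stood for about 6 to 13 reads per library without beads and about 755 to 1089 with anti-Ox40 and high beads, figures that are approximate because the length used by the authors is not known. Low beads gave 0.11 under control Ig, which was not called (adjusted p = 0.233), and 0.35 under anti-Ox40 (adjusted p = 0.000775). The former was called with a pseudocount of 0.1 (0.58, adjusted p = 0.018). High beads gave 0.94 ± 0.077 (SE, adjusted p = 1.02e-08) under control Ig and 2.61 ± 0.077 (SE, adjusted p = 3.07e-14) under anti-Ox40. A transcript on the opposite strand, 4933406J09Rik, overlaps its exons over 577 bases, was not in the table and could not be told apart from it there.

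Counted together, bead differences were common in the family and common among all genes, so the counts are read against that background. With low against no beads under control Ig, 5 of the 10 members were higher and 1 lower, beside 32.6% and 29.8% of all tested genes. With high against no beads, 7 were higher and 1 lower, beside 43.4% and 38.9%. With high against low beads, 8 were higher and 1 lower, beside 40.0% and 32.5%. The anti-Ox40 counts were 7 higher and 2 lower for low against none (background 37.1% and 33.7%), 6 and 2 for high against none (45.2% and 39.3%) and 5 and 1 for high against low (40.3% and 31.2%). All these counts, and the medians below of the 10 and of the 6 pro-apoptotic members, include Bcl2l14. It passed the filter only through high-bead libraries, so its rise with high beads was in part set by the filter. The median log2 difference of the 10 members for high against no beads was 0.85 under control Ig, where that of all tested genes was 0.0375. Both classes took part in it, with medians of 0.90 for the 4 pro-survival and 0.85 for the 6 pro-apoptotic members. With the nuclear RNA score as a covariate, 5 in place of 8 members were called for high against no beads under anti-Ox40, with Bad, Bbc3 and Bcl2l11 lost (adjusted p = 0.123, 0.0519 and 0.0848). Only the difference of Bad shrank among these, from 0.73 to 0.44. Those of Bbc3 and Bcl2l11 went from -0.63 to -0.65 and from -0.42 to -0.60. The score did not overlap between these doses, so the lost calls do not separate nuclear RNA from dose. The share of the fall in myeloid markers and in Malat1 in these differences was not tested.

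**Figure D2:**
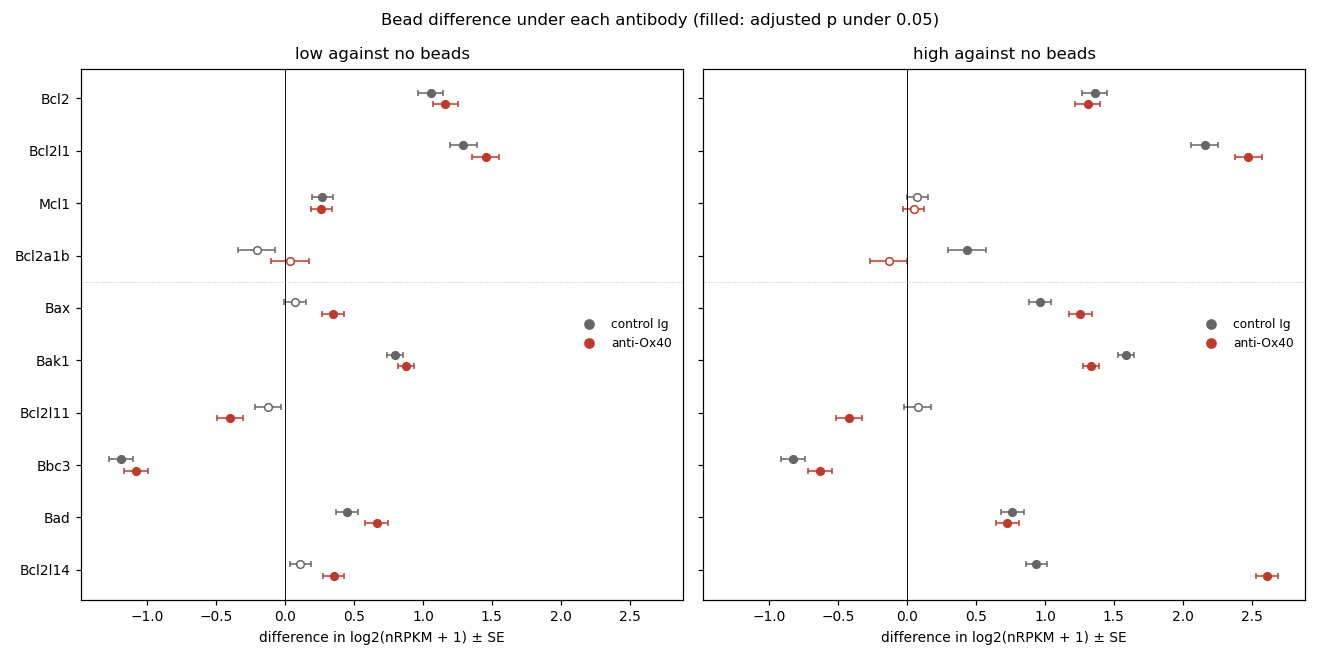
Difference in log2(nRPKM + 1) from no beads (horizontal axis) for each member with low beads (left) and high beads (right), grey for control Ig and red for anti-Ox40, with bars of 1 SE and filled points for adjusted p under 0.05. Bcl2, Bcl2l1, Bak1 and Bad lie right of 0 in all 4 comparisons and Bbc3 left of it, while Bcl2l11 lies left of 0 with filled points under anti-Ox40 alone.

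The antibody comparison at each dose asked what anti-Ox40 added. With high beads, 6 of the 10 members were called, a count that includes Bcl2l14, which could be tested only because of its level with high beads. Bcl2l14, Bcl2l1 and Bax were higher with anti-Ox40, beside 14.4% of all tested genes called higher, and Bcl2l11, Bcl2a1b and Bak1 were lower, beside 11.6% called lower. Thus each direction held both pro-survival and pro-apoptotic genes. The 6 genes had no overlap between the antibodies at that dose. This is no further support, because the same values gave the calls. The share of all tested genes without overlap is not given here. The median of all 10 members was -0.076, beside 0.0043 for all tested genes.

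Bcl2l14 had by far the largest antibody difference of the family. The control Ig libraries lay between 0.916 and 1.18 nRPKM and the anti-Ox40 libraries between 4.96 and 6.07, a ratio of means of 5.29, and the difference was 1.68 ± 0.077 (SE, adjusted p = 7.79e-09). Bcl2l14 reached an nRPKM of 1 in 5 of the 18 libraries, all with high beads and 3 of them with anti-Ox40, so it entered the test through the group where it was high. It was also called in the model with no filter, which tests it whatever its level. The difference there is 1.68 by construction, because the values are the same, so that run does not lift the limit. Without the library of each group with the highest B cell markers, the difference was 1.70. With low beads, anti-Ox40 libraries (0.300 to 0.453) were again above control Ig libraries (0.137 to 0.189), a ratio of means of 2.38. On the log2 scale that was 0.24 ± 0.077 (SE, adjusted p = 0.0567) and was not called. These low-bead values rest on about 39 to 81 and 19 to 27 reads, and with a pseudocount of 0.1 in place of 1 the difference was 0.87 and was called (adjusted p = 0.0201).

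Bcl2l11 was lower with anti-Ox40 at the high dose, where the anti-Ox40 libraries (9.32 to 12.4) lay below the control Ig libraries (14.1 to 16.7), at 0.683 times their mean. The difference was -0.51 ± 0.095 (SE, adjusted p = 0.00112) and was called in all 14 alternatives. With low beads the groups were also separated (9.55 to 12.1 against 12.3 to 14.9), with a difference of -0.29 ± 0.095 (SE, adjusted p = 0.0639) that was not called. Without beads the difference was -0.02, with overlapping groups.

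Bcl2l1 with high beads was at 25.9 to 31.2 nRPKM under anti-Ox40 and at 20.4 to 23.9 under control Ig, 1.32 times as high by means. The difference was 0.39 ± 0.098 (SE, adjusted p = 0.009). The call was lost without anti-Ox40 replicate 1 of that dose (adjusted p = 0.0533) and without the library with the most B cell markers in each group (adjusted p = 0.0754). The low-bead difference was 0.23 (adjusted p = 0.132), with overlapping groups. It was 0.36 and was called without control Ig low-bead replicate 2 (adjusted p = 0.00833).

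Bax was higher with anti-Ox40 at both bead doses, by 0.28 ± 0.081 (SE, adjusted p = 0.0441) with low and 0.30 ± 0.081 (SE, adjusted p = 0.0138) with high beads, or 1.21 and 1.23 times by means. It was the only member called at the low dose, where 6.15% of all tested genes were called higher and 3.44% lower. That call was lost in 10 of 14 alternatives, among them those without control Ig replicate 1 or 3 or any of the 3 anti-Ox40 libraries (adjusted p from 0.0724 to 0.194). The median of the 10 members at low beads was 0.15, beside 0.0031 for all tested genes. The high-bead call was lost in 6 of 14, among them the fit with the nuclear RNA score (adjusted p = 0.0705) and those leaving out control Ig replicate 2 or 3 or the first anti-Ox40 replicate (0.0772, 0.0590 and 0.0780).

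At the low dose Bak1 differed by 0.13 (adjusted p = 0.14), and without control Ig low-bead replicate 2 by 0.21, which was called (adjusted p = 0.00477). Bak1 went the opposite way from Bax at the high dose, at 38.9 to 39.8 nRPKM with anti-Ox40 and 43.1 to 47.2 with control Ig, a difference of -0.20 ± 0.056 (SE, adjusted p = 0.0153). Without control Ig replicate 2 or 3 the call was lost (adjusted p = 0.0540 and 0.0709), as it was without the library with the most B cell markers in each group (0.230). Bcl2a1b was at 1.05 to 1.74 with anti-Ox40 and 1.93 to 2.30 with control Ig, a difference of -0.46 ± 0.14 (SE, adjusted p = 0.0208) that was lost in 7 of 14 alternatives, among them those without control Ig replicate 1 or 3 or anti-Ox40 replicate 1 or 2 (adjusted p from 0.0538 to 0.0862). Bcl2 (-0.10), Mcl1 (-0.08), Bbc3 (0.14) and Bad (-0.07) were not called, with adjusted p from 0.274 to 0.566.

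Beside these high-bead differences, the 8 CD4 T cell identity genes summed to 1464 to 1541 nRPKM with anti-Ox40 and 1705 to 1786 with control Ig, the 8 NK cell markers to 75.8 to 123 and 56.2 to 89.3, and the 6 platelet markers to 22.1 to 30.9 and 42.5 to 51.8. None of the 5 tested NK cell markers was called, and their median log2 difference was -0.19, so the higher sum does not stand for most of them. The B cell markers summed to 4.44 to 7.37 and 4.57 to 12.9, and the NK cell gene Ncr1 was at most 0.423 in either group. The part of these marker differences in the antibody differences was not tested.

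Without beads, no member was called between the antibodies, and the adjusted p was 1 for all 10. Across all tested genes 0.138% were called higher and 0.00% lower. At an unadjusted p under 0.05 none of the 10 differed either, and the share of all tested genes at that threshold is not given here. Bcl2l1 alone had separated groups, 3.96 to 4.31 with control Ig and 4.34 to 4.37 with anti-Ox40, a difference of 0.07 ± 0.098 (SE) that was not called. The share of all tested genes without overlap is not given here, so this separation is not read as a result.

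**Figure D3:**
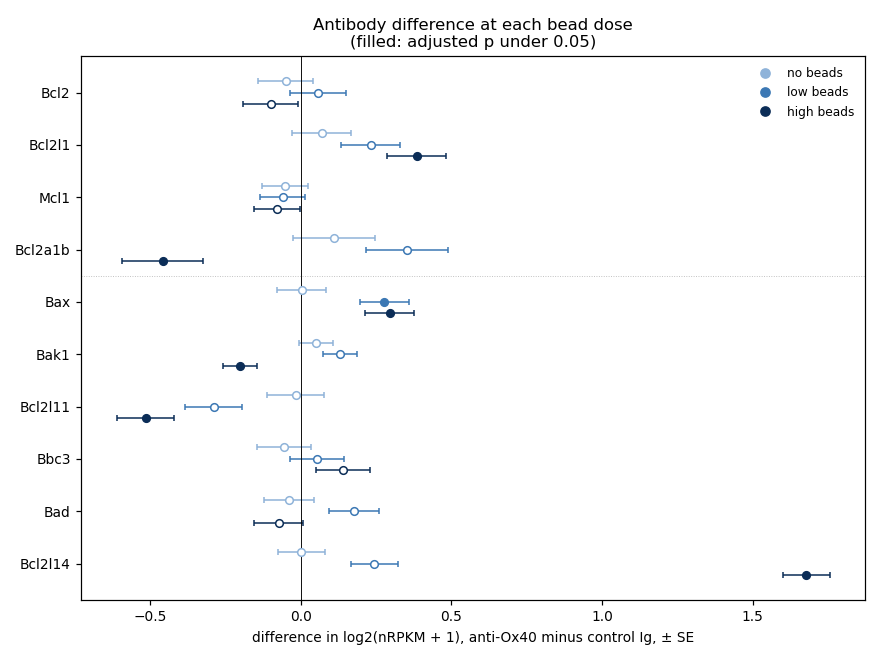
Difference in log2(nRPKM + 1) between anti-Ox40 and control Ig (horizontal axis, anti-Ox40 higher to the right) for each member without, with low and with high beads, with bars of 1 SE and filled points for adjusted p under 0.05. Points without beads lie near 0, and the high-bead point of Bcl2l14 lies at 1.68, beyond all others.

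Whether the antibody difference itself changed with dose was tested as a difference of 2 antibody differences. From none to high beads it grew for Bcl2l14, by 1.68 ± 0.11 (SE, adjusted p = 1.31e-06), and moved down for Bcl2l11, by -0.50 ± 0.13 (SE, adjusted p = 0.0283). These were 2 of the 10 members, beside 11.1% of all tested genes called in either direction. From low to high beads it grew for Bcl2l14, by 1.43 ± 0.11 (SE, adjusted p = 1.23e-05). It moved down for Bcl2a1b, by -0.81 ± 0.19 (SE, adjusted p = 0.0349), and for Bak1, by -0.33 ± 0.080 (SE, adjusted p = 0.0361). These were 3 of 10, beside 3.17% of all tested genes. For Bak1 and Bcl2a1b the antibody differences had opposite signs, 0.13 and 0.35 at low and -0.20 and -0.46 at high beads, of which the low-bead ones were not called. From none to low beads none of the 10 was called, beside 0.268% of all tested genes. At an unadjusted p under 0.05, Bax (0.27) and Bcl2l14 (0.24) differed. The share of all tested genes at that unadjusted threshold is not given here, so these are not read as a result. The interactions of Bcl2l11, Bak1 and Bcl2a1b were lost in 11, 13 and 10 of 20 alternatives, and those of Bcl2l14 carry the limit from the filter given above. For Bcl2l11 the call was lost when any of 8 of the 12 libraries was left out, with the highest adjusted p (0.0843) without high-bead anti-Ox40 replicate 1. For Bak1 it was lost with any of 10 left out (up to 0.101 without high-bead control Ig replicate 3), and for Bcl2a1b with any of 7 (up to 0.0961 without high-bead anti-Ox40 replicate 1). The antibody differences of Bcl2l1 and Bax were not shown to change with dose (adjusted p from 0.112 to 0.948), except for Bax from none to high beads without high-bead control Ig replicate 1 (0.38, adjusted p = 0.0254). From none to high beads, Bak1 and Bcl2a1b, not called, were called without 1 library, namely Bak1 without high-bead control Ig replicate 1 (adjusted p = 0.0326) and Bcl2a1b without high-bead anti-Ox40 replicate 3 (0.0277). Both were also called with the compared groups alone (0.0239 and 0.0429), and Bak1 with median-ratio scaling or the nuclear RNA score (0.0245 and 0.00513).

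The balance of the classes was described by adding nRPKM in each library, with no test, because the sums are dominated by single genes. The 4 pro-survival members summed to 192 to 194 nRPKM without beads, 245 to 299.5 with low and 249 to 276 with high beads under control Ig. The 6 pro-apoptotic members summed to 109.8 to 115, 116 to 137 and 205 to 228. Under anti-Ox40 the pro-survival sums were 182.5 to 192.3, 242.1 to 285.5 and 241.8 to 269.0. The pro-apoptotic sums there were 109.0 to 120.7, 136.8 to 144.8 and 230.1 to 250.4. Thus both sums were higher at both bead doses than without beads, with no overlap, and the pro-apoptotic sum rose mainly at the high dose.

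The ratio of the sums, pro-survival over pro-apoptotic, was 1.67 to 1.76 without beads, 2.05 to 2.19 with low beads and 1.09 to 1.34 with high beads under control Ig. Under anti-Ox40 it was 1.59 to 1.69, 1.77 to 1.97 and 0.97 to 1.15. It peaked at the low dose and was lowest at the high dose under both antibodies. At low beads the anti-Ox40 libraries lay below the control Ig libraries, and at high beads the antibodies overlapped. Mcl1 made up 82.9 ± 0.325% (SD, n = 3) of the pro-survival sum without beads and 63.6 ± 0.423% with high beads under control Ig. Bax made up 60.3 ± 0.990% and 62.6 ± 3.58% of the pro-apoptotic sum, and 69.2 ± 1.26% with anti-Ox40 and high beads. These shares make the ratio largely a comparison of Mcl1 with Bax.

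Ratios of single pairs gave another order. The log2 ratio of Bcl2l1 to Bcl2l11, each with 1 added, was -1.74 to -1.51 without beads, -0.29 to -0.10 with low and 0.28 to 0.72 with high beads under control Ig. Under anti-Ox40 it was -1.56 to -1.51, 0.29 to 0.34 and 1.01 to 1.64. So the nRPKM of Bcl2l1 passed that of Bcl2l11 with low beads under anti-Ox40 and with high beads under either antibody. Where this crossing falls depends on the gene lengths the authors used, which are not known. The anti-Ox40 libraries lay above the control Ig libraries in this ratio at both bead doses. The log2 ratio of Bcl2 to Bcl2l11 showed the same separation, at 1.98 to 2.07 against 2.31 to 2.42 with low and 2.10 to 2.17 against 2.46 to 2.62 with high beads. For Mcl1 to Bcl2l11 it was 3.66 to 3.80 against 3.83 to 4.16, and 3.32 to 3.40 against 3.59 to 3.91. In contrast, the log2 ratio of Bcl2 to Bax with high beads was -1.23 to -0.67 with control Ig and -1.53 to -1.10 with anti-Ox40, overlapping ranges. The ratios that separated all had Bcl2l11 as denominator, whose libraries lay lower with anti-Ox40 at both bead doses. Bcl2 and Mcl1 were not called between antibodies, so their ratios largely restate Bcl2l11. Bax was set against Bcl2 alone, so the parts of numerator and denominator were not told apart there.

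**Figure D4:**
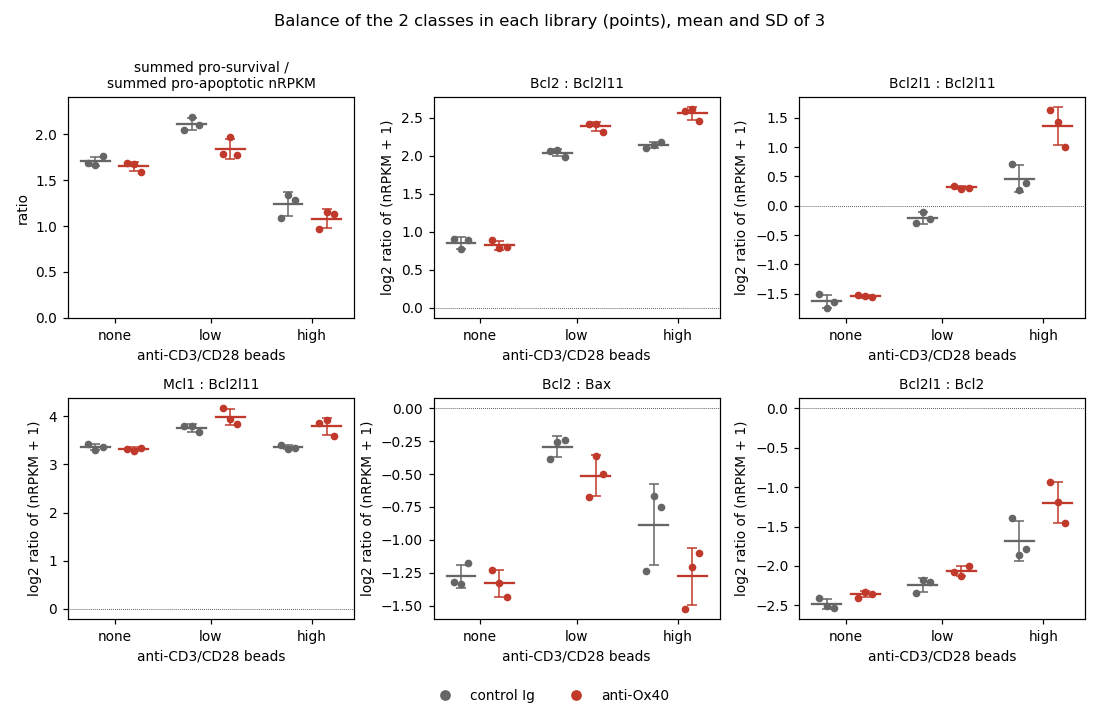
Balance of the classes in each library (points) by bead dose and antibody, with horizontal lines for the group mean and vertical bars for 1 SD (n = 3), as the ratio of summed pro-survival to summed pro-apoptotic nRPKM and as log2 ratios of single pairs. The ratio of sums is highest with low beads (1.77 to 2.19) and lowest with high beads (0.97 to 1.34), whereas the log2 ratio of Bcl2l1 to Bcl2l11 climbs with each dose.

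Beyond the members, 16 other BCL2 family genes were listed, of which 9 were tested. Between antibodies, Bnip3 was called with low beads (0.65, adjusted p = 0.00122) and none of the 9 by limma with high or no beads. At an unadjusted p under 0.05 these were Bid, Bcl2l2 and Bcl2l13 with high beads and none without. The share of all tested genes at that unadjusted threshold is not given here. With high against no beads under control Ig, 5 of the 9 were higher and 1 lower, beside 43.4% and 38.9% of all tested genes. Bnip3, a mitochondrial protein linked to hypoxia and mitophagy, went from 0.569 ± 0.0886 to 20.4 ± 0.792 nRPKM (SD, n = 3), a log2 difference of 3.77. Its relative Bnip3l (0.83), Bcl2l2, the gene for the pro-survival protein Bcl-w (0.75), Bcl2l15 (1.03) and Bcl2l13 (0.31) were higher too. Bik, a BH3-only gene, was lower (-0.20). The BH3 genes Bid (0.10) and Pmaip1, which encodes Noxa (-0.22), and Bcl2l12 (-0.10) were not called. Among those under the filter, Bmf, a BH3-only gene, was listed at 0.400 to 0.442 nRPKM without beads and 0.064 to 0.085 with high beads under control Ig.

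Downstream of the mitochondrial pore, 16 apoptosome, caspase and inhibitor of apoptosis genes were tested. With high against no beads under control Ig, 12 were higher and 2 lower, beside 43.4% and 38.9% of all tested genes. Birc5, the mitotic gene for survivin (4.40), and the channel gene Vdac1 (1.91) were among the higher ones. Anti-Ox40 raised 5 of the 16 with low beads, beside 6.15% of all tested genes higher and 3.44% lower, and 6 with high beads, beside 14.4% and 11.6%, and lowered none. At low beads Vdac1 (0.38) and the nuclease gene Endog (0.34) were among those raised. At high beads the smallest adjusted p were those of Birc3, the gene for cIAP2 (0.45), the protease gene Htra2 (0.49) and Casp6 (0.58). The median difference of the list was 0.16 at both doses, beside 0.0031 and 0.0043 for all tested genes.

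Of 10 death receptor genes, which feed the same caspases from the cell surface, 3 were higher and 5 lower with high against no beads under control Ig, near the 43.4% and 38.9% of all tested genes. Fasl (-1.49) and Cflar, the gene for the inhibitor FLIP (-0.55), were lower and Tnfrsf10b, the mouse TRAIL receptor gene (1.01), was higher. With anti-Ox40, 1 of 10 was higher at low beads (Tnfrsf10b, 0.35), beside 6.15% of all tested genes. At high beads 2 were higher and 2 lower, beside 14.4% and 11.6%, with the smallest adjusted p for Cflar (0.41), Tnfrsf10b (0.58) and Tnfsf10, the gene for TRAIL (-0.37).

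Of 16 regulators known to act on family members, 7 were higher and 7 lower with high against no beads under control Ig, near the 43.4% and 38.9% of all tested genes. Il2ra, a subunit of the IL-2 receptor (3.02), and the NF-κB gene Nfkb1 (1.14) were higher, and the IL-7 receptor gene Il7r (-3.15) was lower. Anti-Ox40 raised 2 and lowered 1 at low beads (background 6.15% and 3.44%), namely Nfkb2, a gene of the noncanonical NF-κB pathway (0.64), Il2ra (0.29) and Rel (-0.27). At high beads it raised 7 and lowered none (background 14.4% and 11.6%), with the smallest adjusted p for Nfkb2 (1.00), Stat5a (0.67) and Myc (0.41).

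Promoter windows were searched for the motifs of such regulators. The 10 members had 17 windows of 300 bases (250 before to 50 after a start) in RefSeq on GRCm38.p6, and both strands were read. The motifs were AP-1 (TGACTCA), FOXO (GTAAACA), CRE (TGACGTCA), STAT (TTCNNNGAA), and NF-κB and the p53 half-site by their degenerate consensus. NF-κB matches lay in 2 of the 17 windows (Bcl2l1 and Bbc3), FOXO matches in 2 (Bcl2l11 and Bbc3) and a p53 half-site in 1 (Bax). AP-1, STAT and CRE had no match. Of all 32851 windows, 8.46% held NF-κB, 3.65% FOXO, 8.36% the p53 half-site, 8.30% STAT, 5.20% AP-1 and 1.79% CRE. Bbc3, which fell with beads, is not shown. Shown are the 60 bases, on the strand of the gene, around a match in 3 other members whose levels changed with beads or antibody, with the match in capitals.
Bcl2l1 (chr2:152830908-152830967, minus strand): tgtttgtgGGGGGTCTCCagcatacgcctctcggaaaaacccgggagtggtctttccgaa
Bcl2l11 (chr2:128125788-128125847, plus strand): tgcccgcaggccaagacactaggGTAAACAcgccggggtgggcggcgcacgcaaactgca
Bax (chr7:45467065-45467124, minus strand): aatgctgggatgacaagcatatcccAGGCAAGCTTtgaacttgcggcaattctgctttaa
Neither window of Bcl2l14 held any of the 6 motifs. A match is a run of letters and no evidence of binding.

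Several members shared their pattern over the 18 libraries with other genes almost exactly, given here as Pearson correlations of log2(nRPKM + 1). This is a description only. The libraries span all bead doses, so genes that change with dose in a like way correlate highly. The most alike were Xbp1 (0.994), Myo6 (0.992) and Tmpo (0.992) for Bcl2, Cct5, Mthfd1 and Ipo5 (each above 0.99) for Bcl2l1, and Mapkapk2 (0.993), Eif6 (0.993) and Junb (0.992) for Bax. Mcl1 and Bcl2l11, which did not follow the dose, had looser neighbours, Dusp10 (0.955), Uvrag (0.931) and Atn1 (0.919) for Mcl1 and Ablim1 (0.945), Kctd12 (0.913) and Ptk2b (0.908) for Bcl2l11.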

How the data were processed

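The 18 RNA sequencing libraries of splenic CD4 T cells were analysed, in 6 groups of 3 by antibody and bead dose. Per the labels' protocols, they were made with the TruSeq RNA kit, version 2, 10 PCR cycles and an input of 100 to 500 ng. The authors deposited 1 table of nRPKM, that is RPKM values with a further normalisation between libraries. The submitters' processing notes name GSNAP as aligner and GRCm38 as build, without versions; annotation, counting and scaling are not given in these sources. Deposited RPKM values summed to 273498 to 348466 per library, and no pair of libraries was identical. The values of microRNA genes of known length fell on whole reads for 100% of low values, within 0.1 read, which gave the reads behind an nRPKM; these figures cover counting error only.

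Values were taken to log2(nRPKM + 1), and 13075 entries that reached an nRPKM of 1 in 3 or more libraries were tested in limma 3.58.1 (R 4.3.3), with a mean for each group, eBayes with a trend and 12 residual degrees of freedom. Calls used a two-sided Benjamini-Hochberg adjusted p under 0.05. The 12 contrasts covered antibody at each dose, dose within each antibody and the change of the antibody difference with dose. The pipeline was tested on simulated data. Alternatives were a pseudocount of 0.1, no filter, no trend, the compared groups alone, median-ratio scaling, a replicate block, a nuclear RNA score as covariate, leaving out the library of each group with the most B cell markers, and leaving out each library. Replicate numbers follow accession order and the labels give no pairing, so the main model has no block. Members and gene lists were chosen with earlier results of these data known. All members were described; of the other BCL2 family list all tested genes were named, and of 3 further lists up to 3 called genes with the smallest adjusted p, except for an item that is not reported here. Genes most alike were the 3 with the highest correlation, passing over predicted, date-like and unnamed symbols.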

Additional observations from a re-analysis of the deposited data

Results flagged for a closer look

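Tests of the difference between antibody effects at different bead doses singled out 5 results of the family. For Bcl2l14, the gene for Bcl-G, the anti-Ox40 difference was larger with high beads than with none by 1.68 ± 0.11 (SE, adjusted p = 1.31e-06) on the log2 scale, and larger than with low beads by 1.43 ± 0.11 (SE, adjusted p = 1.23e-05). For Bcl2l11, the gene for Bim, it was lower with high beads than with none by -0.50 ± 0.13 (SE, adjusted p = 0.0283). For Bak1 the change from low to high beads was -0.33 ± 0.080 (SE, adjusted p = 0.0361), and for Bcl2a1b it was -0.81 ± 0.19 (SE, adjusted p = 0.0349). All adjusted p are from limma. Bcl2l14 could be tested only through its level in high-bead libraries. The values of Bcl2l11, Bak1 and Bcl2a1b were lost in 11, 13 and 10 of 20. The groups of 3 are too small for a search for single outlying libraries.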

How the results depend on the processing

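Of 120 results for single members (10 genes in 12 contrasts), 58 were called, of which 37 held in every alternative run and 21 were lost in at least 1. Of the 62 not called, 11 were called in at least 1 alternative. None changed sign while called on either side; changes of sign between values that were not called are not counted.

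Counts over all tested genes moved as follows. Without beads the 18 genes called between antibodies became 86 with a pseudocount of 0.1, 9 with no filter, 10 with no trend, 3 with the compared groups alone, 59 with the replicate block, 38 with the nuclear RNA score and 0 without the libraries with the most B cell markers. With low beads the 1254 genes and 1 member became 557 and 0 with no filter, 45 and 0 with the compared groups alone, 254 and 0 with the nuclear score and 24 and 0 without the B cell libraries; 2 members were called with a pseudocount of 0.1 and 3 with the block. With high beads the 3397 genes and 6 members became 1387 and 2 without the B cell libraries. With the nuclear score, high against low beads fell from 9483 to 4924 genes under control Ig and from 9348 to 4975 under anti-Ox40, and high against none under anti-Ox40 from 11052 genes and 8 members to 6656 and 5. Because the score itself was lower in all high-bead libraries, these smaller counts do not separate nuclear RNA from bead dose.

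For the change of the antibody difference from none to low beads, the 35 genes became 17 with the compared groups alone, 19 with the nuclear score and 1 without the B cell libraries. From none to high beads, 1451 genes and 2 members became 966 and 1 with no filter, 744 genes with the nuclear score and 7 and 1 without the B cell libraries, and 4 members were called with the compared groups alone. From low to high beads, 414 genes and 3 members became 263 and 1 with no filter, 152 and 1 with the compared groups alone, 692 genes with the block, 968 with the nuclear score and 3 and 1 without the B cell libraries. Leaving out the B cell libraries also leaves 2 per group. The other causes were not tested.

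Leaving out each library in turn gave 0 to 30 genes without beads, 131 to 3522 genes and 0 to 4 members with low beads, 2065 to 3363 and 3 to 6 with high beads, 19 to 1866 genes from none to low, 602 to 1743 and 1 to 4 from none to high and 102 to 1243 and 1 to 3 from low to high beads. The 3522 genes and 4 members came without control Ig low-bead replicate 2. The ratio of summed pro-survival to pro-apoptotic nRPKM was 1.58, 1.52 and 1.99 with the other family members added, for control Ig and anti-Ox40 without beads and control Ig with low beads, against 1.71, 1.65 and 2.12.

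Libraries of the same number correlated in their deviations from the group mean at -0.16 to 0.35, others at -0.28 to 0.20. All 18 correlated best with a library of their own number, and replicate 3 had the most B cell markers in all 6 groups. The numbers thus carried a structure across groups, which the main model leaves out only because the labels give no pairing. Whether libraries of 1 number share cells is not given in the labels. With the replicate block, Bcl2l11 (adjusted p = 0.0207) and Bcl2l14 (0.0377) were also called between antibodies with low beads, Bcl2l11 for high against low beads under control Ig (0.20, adjusted p = 0.0149), and Bcl2a1b for the change of the antibody difference from none to high beads (0.0378).

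Depth limits Bcl2l14 without beads (about 6 to 13 reads) and Bcl2a1b (24 to 64), for which small differences were not detectable.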
